A study of Oryctolagus cuniculus with 4 samples.

Results

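The genes described here encode the protein subunits of the mitochondrial respiratory chain and ATP synthase that are carried in the nuclear genome. They were chosen by name from the gene list of the count tables: every name starting with NDUF, UQCR, COX4 to COX8 or ATP5, and the names SDHA to SDHD, with the complex I assembly factors named NDUFAF left out. The rule found 27 members among 21139 features, 11336 of which carry a gene name. By complex these were 16 subunits of complex I, 1 of complex II, 3 of complex III, 2 of complex IV and 5 of complex V. A list of 80 nuclear subunits was looked up, all 27 members were on it, and the other subunits carried no named feature and were not analysed here.

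The respiratory chain sits in the inner mitochondrial membrane. Complexes I and II pass electrons from NADH and succinate to ubiquinone, complex III hands them to cytochrome c, complex IV passes them to oxygen, and complex V, the ATP synthase, uses the resulting proton gradient to make ATP. Complexes I, III, IV and V are built from subunits of both the nuclear and the mitochondrial genome, whereas complex II is wholly nuclear. In skeletal muscle, slow type I fibers, which express the myosin MYH7, are known for dense mitochondria, and the fastest fibers, which express MYH1 (type IIx) or MYH4 (type IIb), are known for a more glycolytic metabolism.

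The study placed 4 sections of rabbit supraspinatus, a rotator cuff muscle, on 10x Visium slides, which capture the 3′ ends of mRNA on an array of barcoded spots and count them by unique molecular identifiers (UMIs). All animals were skeletally mature female New Zealand White rabbits, 6 months old, and all 4 pieces came from the posterior distal muscle belly and were snap frozen in cooled isopentane. One section was healthy muscle processed fresh, 1 was healthy muscle kept frozen for 6 years, and 2 were muscles taken 2 weeks and 16 weeks after the supraspinatus tendon was cut (tenotomy), both also kept for 6 years. Each condition was thus 1 section, with no replicate. The sample names of the stored healthy and the 16-week sections share a number and differ in the letters R and L, and whether they are both shoulders of 1 animal was not stated. No test between conditions was possible, and animal, section and condition cannot be told apart in any comparison.

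The sections held 1950 (fresh healthy), 2440 (stored healthy), 854 (2-week) and 1726 (16-week) spots under tissue. Totals ranged from 4079313 to 12536450 UMIs per section, of which the 37 mitochondrial genes took 49.3% and 49.2% in the healthy sections, 33.8% at 2 weeks and 34.6% at 16 weeks. The levels below are therefore UMIs per 10000 UMIs of all other genes (2699937 to 6366290 per section), and the result of dividing by all UMIs is given where it matters. A spot covers several fibers and the cells between them, so fewer cells of a type and less RNA per cell cannot be told apart. Of 2931 spot barcodes in use, 2118 occurred in 2 or more sections and 512 in all 4, so spots were always read together with their section. Intervals are exact 95% intervals, Poisson for levels, conditional binomial for ratios and binomial for shares, and cover counting error only, not the difference between animals or sections. The 4 muscle fiber markers that had a feature summed to 80.6 to 109 per 10000 in the 4 sections.

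The 27 subunits together were highest in stored healthy muscle and lowest at 16 weeks. Their summed level was 429.6 per 10000 in fresh healthy muscle, 493 in stored healthy muscle, 361 at 2 weeks and 284 at 16 weeks. Both tenotomy sections were thus below both healthy sections on this scale, and the same order appeared in single spots. Per 10000 of all UMIs, mitochondrial ones included, the sum was 218 in fresh healthy muscle, 250.3 in stored healthy muscle, 239 at 2 weeks and 186 at 16 weeks. On that scale the 16-week section was still the lowest, and the 2-week section lay between the healthy ones. Among spots with 500 or more non-mitochondrial UMIs, the median per 10000 non-mitochondrial UMIs was 423 (quartiles 372 to 478, 1690 spots) in fresh healthy muscle and 505 (450.2 to 559, 2349 spots) in stored healthy muscle. It was 359.6 (316 to 407, 810 spots) at 2 weeks and 269 (213 to 325, 1500 spots) at 16 weeks. The upper quartile of the 16-week spots therefore lay below the lower quartile of the spots of either healthy section. Per all UMIs it did not, at 205 against a lower quartile of 192 in fresh healthy muscle and 229 in stored healthy muscle.

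Subunit by subunit, 23 of 27 members were lower in both tenotomy sections than in both healthy sections, and 0 were higher in both. Of all 4273 genes with 100 or more UMIs in the 4 sections together, 9.27% had the first order and 36.1% the second. Per all UMIs only 5 of 27 members were lower in both tenotomy sections, against 2.34% of the same genes. On that scale 3 of 27 were higher in both, against 2601 of those 4273 genes. In 24 of 27 members the level per non-mitochondrial UMI descended from stored healthy muscle through the 2-week to the 16-week section. This order held in 7.28% of those genes. Per all UMIs it held in 10 of 27 members, against 110 of the 4273 genes. The exceptions on the first scale were COX4I2, NDUFB11 and NDUFS4, which were not lower at 16 than at 2 weeks. The order of the members among themselves was alike in the 4 sections, with Spearman's rho of 0.946 to 0.980 over the 27 members for the 6 pairs of sections, as a description of UMI levels that share gene annotation and assay. The 5 members with most UMIs held 44.4% of the members' UMIs in fresh healthy muscle, 47.3% in stored healthy muscle, 41.7% at 2 weeks and 42.1% at 16 weeks. The sum therefore leaned on COX5B, ATP5F1B, UQCRQ, ATP5MC1, UQCRB, ATP5F1A and ATP5MC3, the genes that were among the top 5 of at least 1 section.

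**Figure D1:**
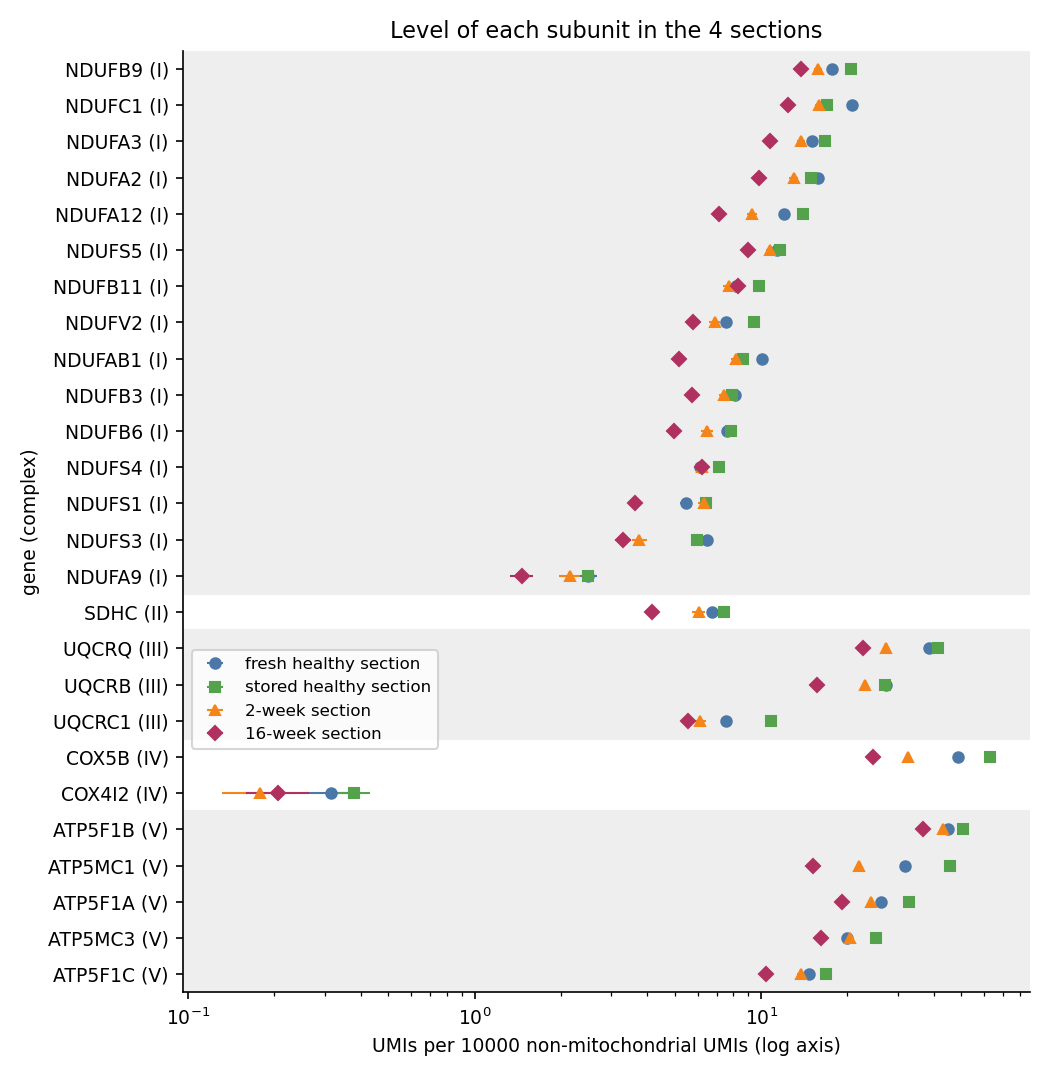
Level of 26 of the 27 subunits (UMIs per 10000 non-mitochondrial UMIs, log axis) in the 4 sections, ordered by complex, which is given in brackets. Points are sections and lines are exact 95% Poisson intervals, most of which are narrower than the point. Over all 27 members the 16-week section is lowest for 24 (15.9% of all genes with enough UMIs) and the stored healthy section is highest for 20 (8.31%).

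The first step of the chain was read through 16 complex I genes, which together stood at 163 per 10000 in fresh healthy muscle, 172 in stored healthy muscle, 142 at 2 weeks and 113 at 16 weeks. NDUFS1 (ENSOCUG00000012368), the subunit that carries several of the iron-sulfur clusters, stood at 5.46, 6.41, 6.31 and 3.63 in the same order of sections. It was as high at 2 weeks as in stored healthy muscle, within counting error, and lower at 16 weeks. NDUFS3 (ENSOCUG00000006359), another core subunit of the matrix arm, stood at 6.49, 5.95, 3.76 and 3.29. Both tenotomy values of NDUFS3 were far below both healthy values.

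NDUFV2, part of the module that oxidizes NADH, stood at 7.51, 9.42, 6.88 and 5.76. NDUFA12 (ENSOCUG00000033569), an accessory subunit of the matrix arm, stood at 12.0, 14.0, 9.28 and 7.11, with both tenotomy sections below both healthy sections. NDUFAB1 (ENSOCUG00000008457), which also serves as the mitochondrial acyl carrier protein, stood at 10.1, 8.65, 8.17 and 5.17. NDUFAB1 thus differed little between the stored healthy and 2-week sections and was clearly lower only at 16 weeks. NDUFC1 (ENSOCUG00000004419), a small membrane subunit, stood at 20.7, 16.96, 15.9 and 12.4 and was highest in the fresh section. NDUFS4 (ENSOCUG00000000790), an accessory subunit needed for a stable complex, stood at 6.13, 7.12, 6.23 and 6.24, so that both tenotomy sections lay between the 2 healthy ones. NDUFB11 (ENSOCUG00000008371), of the membrane arm, stood at 8.16, 9.84, 7.70 and 8.29 and was the other complex I gene that was not lower at 16 than at 2 weeks. The other members named NDUFA, NDUFB and NDUFS ranged from 2.48 (NDUFA9) to 20.6 (NDUFB9) in stored healthy muscle and from 1.46 (NDUFA9) to 13.8 (NDUFB9) at 16 weeks.

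Complex II was represented by SDHC (ENSOCUG00000031120) alone, which anchors the complex in the membrane. SDHC stood at 6.76, 7.44, 6.04 and 4.17 per 10000. SDHA, SDHB and SDHD carried no named feature, so nothing here describes the catalytic part of complex II.

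Complex III was read through 3 genes, which summed to 73.1, 79.2, 56.4 and 43.9. UQCRC1 (ENSOCUG00000002041), a core protein that faces the matrix, stood at 7.53 in fresh healthy muscle, 10.9 in stored healthy muscle, 6.13 at 2 weeks and 5.55 at 16 weeks. UQCRC1 was set apart by its high stored healthy value. UQCRQ (ENSOCUG00000013627) and UQCRB (ENSOCUG00000008113) are small subunits near the ubiquinone sites. UQCRQ stood at 38.4, 41.3, 27.3 and 22.7, and UQCRB at 27.2, 27.1, 23.0 and 15.6. The healthy sections held like levels of UQCRB, and the 16-week section was the lowest for both genes.

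Complex IV rested almost wholly on COX5B (ENSOCUG00000017085), a zinc-binding subunit on the matrix side. COX5B stood at 48.6 per 10000 in fresh healthy muscle, 62.9 in stored healthy muscle, 32.6 at 2 weeks and 24.6 at 16 weeks. It was the member with most UMIs in both healthy sections, and in both tenotomy sections ATP5F1B took that place. The other complex IV gene, COX4I2 (ENSOCUG00000025424), encodes the isoform of subunit 4 known from lung and from low oxygen, and was near the lower limit of the assay. COX4I2 stood at 0.315, 0.379, 0.178 and 0.206, and a UMI of it was present in 5.03%, 8.28%, 5.04% and 3.24% of spots. Its usual partner isoform COX4I1 carried no named feature.

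Complex V was read through 3 genes of the catalytic head and 2 genes of the rotating ring. ATP5F1B (ENSOCUG00000006090), the beta subunit that binds and releases ATP, stood at 44.8, 50.6, 43.3 and 36.8. ATP5F1A (ENSOCUG00000003967), its alpha partner, stood at 26.3, 32.9, 24.2 and 19.2. ATP5F1C (ENSOCUG00000004642), the gamma shaft, stood at 14.7, 16.9, 13.8 and 10.4. All 3 head genes were highest in the stored healthy and lowest in the 16-week section.

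ATP5MC1 (ENSOCUG00000016225) and ATP5MC3 (ENSOCUG00000012164) encode the same mature subunit c of the ring with different import sequences. ATP5MC2, the other gene of this family, carried no named feature. ATP5MC1 stood at 31.8, 45.6, 22.0 and 15.1 per 10000, and ATP5MC3 at 19.9, 25.1, 20.4 and 16.2. For ATP5MC1 both tenotomy sections lay below both healthy ones, whereas ATP5MC3 at 2 weeks was not below fresh healthy muscle. The pair is described further on.

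The stored healthy section was compared with the fresh one, although 1 section of each cannot show whether years in the freezer alter what is measured. The summed level was higher in the stored section, with a ratio of 1.15 (1.14 to 1.15). Of the members, 20 of 27 lay above 1, against 1514 of all 3359 genes tested. The members' ratios ran from 0.818 (0.794 to 0.843) for NDUFC1 to 1.44 (1.38 to 1.51) for UQCRC1. High ratios were also those of ATP5MC1 at 1.43, COX5B at 1.29 and ATP5MC3 at 1.26, and next to NDUFC1 stood NDUFAB1 at 0.859, NDUFS3 at 0.917, NDUFA2 at 0.947 and NDUFB3 at 0.975. By a difference of 1.5-fold among genes with 100 or more UMIs in both groups together, 0 of 27 members were lower and 0 were higher, against 20.5% of 3359 genes lower and 15.2% higher. By complex the ratios were 1.05 for I, 1.10 for II, 1.08 for III, 1.29 for IV and 1.24 for V.

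The 2 healthy sections also differed in fiber type. Slow muscle markers summed to 419 per 10000 in the fresh and 1011 in the stored section, fast muscle markers to 841 and 453, and connective tissue markers to 27.7 and 84.5. Of the slow markers 7 were higher in the stored section, with MYL2 alone at 114 and 495, and TNNI1 was lower, at 139 and 74.5. Within spots of 1 fiber class (defined below by myosin), the stored over fresh ratio of the member sum was 1.16 (1.15 to 1.17) in fast spots, 1.14 (1.12 to 1.15) in mixed spots and 0.929 (0.883 to 0.977) in slow spots, of which the fresh section had only 14. Animal, storage and the makeup of the tissue cannot be told apart here.

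At 2 weeks after tenotomy all 27 subunits were lower than in stored healthy muscle, per non-mitochondrial UMI, against 37% of all genes tested, whereas per all UMIs 16 of 27 were at or above the stored healthy level. The ratio of the summed levels was 0.732 (0.727 to 0.737), and for 26 of 27 members the interval of the ratio lay below 1. Such intervals were not counted over all genes, and they are narrower for genes with more UMIs. Complex IV had the lowest ratio at 0.517 (0.505 to 0.529), followed by III at 0.712 (0.699 to 0.725), V at 0.723 (0.714 to 0.732), II at 0.812 (0.767 to 0.860) and I at 0.826 (0.816 to 0.836). Divided by all UMIs, with the mitochondrial genes included, the ratio of the sum was 0.954, and complexes I and II passed to the other side of 1, at 1.08 and 1.06, while III (0.928), IV (0.674) and V (0.942) stayed below it. The direction at 2 weeks thus depended on the denominator for most single members.

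Beyond 1.5-fold, 7 of 27 members were lower at 2 weeks and 0 were higher, against 8.21% of 3266 genes lower and 22.4% higher. These were COX4I2 at 0.470 (0.337 to 0.642), ATP5MC1 at 0.482 (0.469 to 0.496), COX5B at 0.518 (0.506 to 0.530), UQCRC1 at 0.564, NDUFS3 at 0.631, UQCRQ at 0.660 and NDUFA12 at 0.664. All complexes but II were among them. At the other end were NDUFS1 at 0.986 (0.931 to 1.04), NDUFAB1 at 0.945, NDUFC1 at 0.940, NDUFB3 at 0.940 and NDUFS5 at 0.925, all of complex I. The median of the members' ratios was 0.814 and the median of all genes tested was 1.12, and relative to that median gene the ratio of the sum was 0.651. The 2-week section held 1356 UMIs of fast muscle markers per 10000 where the stored healthy section held 453, and 204 of connective tissue markers against 84.5, and their part in the difference was not tested.

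At 16 weeks 27 of 27 members were lower than in stored healthy muscle per non-mitochondrial UMI, against 25.3% of all genes tested. Per all UMIs 24 of 27 were lower, the exceptions being NDUFB11, NDUFS4 and NDUFS5. Per non-mitochondrial UMI the interval of every member's ratio lay below 1, again without a count of such intervals over all genes. This comparison used the same stored healthy section, so both tenotomy comparisons share that section and are not independent of each other. The ratio of the summed levels was 0.576 (0.572 to 0.580). Complex IV was again the lowest at 0.392 (0.383 to 0.402), and complex I the highest at 0.660 (0.652 to 0.668), with III at 0.554 (0.544 to 0.565), II at 0.560 (0.526 to 0.596) and V at 0.571 (0.564 to 0.578) between them. Divided by all UMIs the ratio of the sum was 0.742.

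Beyond 1.5-fold, 20 of 27 members were lower at 16 weeks and 0 were higher, against 7.45% of 3504 genes lower and 43.9% higher. They comprised 10 of 16 complex I genes, SDHC, all 3 complex III genes, both complex IV genes and 4 of 5 complex V genes. The lowest ratios were those of ATP5MC1 at 0.332 (0.322 to 0.342), COX5B at 0.391 (0.382 to 0.401), NDUFA12 at 0.509 and UQCRC1 at 0.512. The highest were those of NDUFS4 at 0.876 (0.830 to 0.924), NDUFB11 at 0.842 (0.804 to 0.882), NDUFS5 at 0.777, NDUFC1 at 0.734 and ATP5F1B at 0.727. The median of the members' ratios was 0.597 where that of all genes tested was 1.40, and relative to that median gene the ratio of the sum was 0.411.

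Summed markers of other cells were higher in the 16-week section too. Connective tissue markers (7 of 12 with a feature) summed to 128 per 10000 against 84.5 in stored healthy muscle. Adipose markers (3 of 8) summed to 19.3 against 5.82, nearly all of it LPL (19.2 and 5.80), with LEP at 0 and ADIPOQ at 43 and 13 UMIs. Macrophage markers (10 of 10) summed to 6.70 against 3.55. Of these, GPNMB (0.474 against 0.895) and LYZ (0.0548 against 0.105) were lower and the others higher. The part of all these markers in the lower subunit levels was not tested. Spots with 10 or more UMIs of the 3 myosins MYH1, MYH4 and MYH7 together are called muscle spots here. Among them the ratio of the sum was 0.590. In the remaining 300 spots of the 16-week section the connective tissue markers stood at 365 per 10000 and the subunits at 182. Those 300 spots were not all free of fibers. They held the 3 myosins at 81.2 per 10000, with a median of 534.5 non-mitochondrial UMIs a spot against 1732.5 in the muscle spots.

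**Figure D2:**
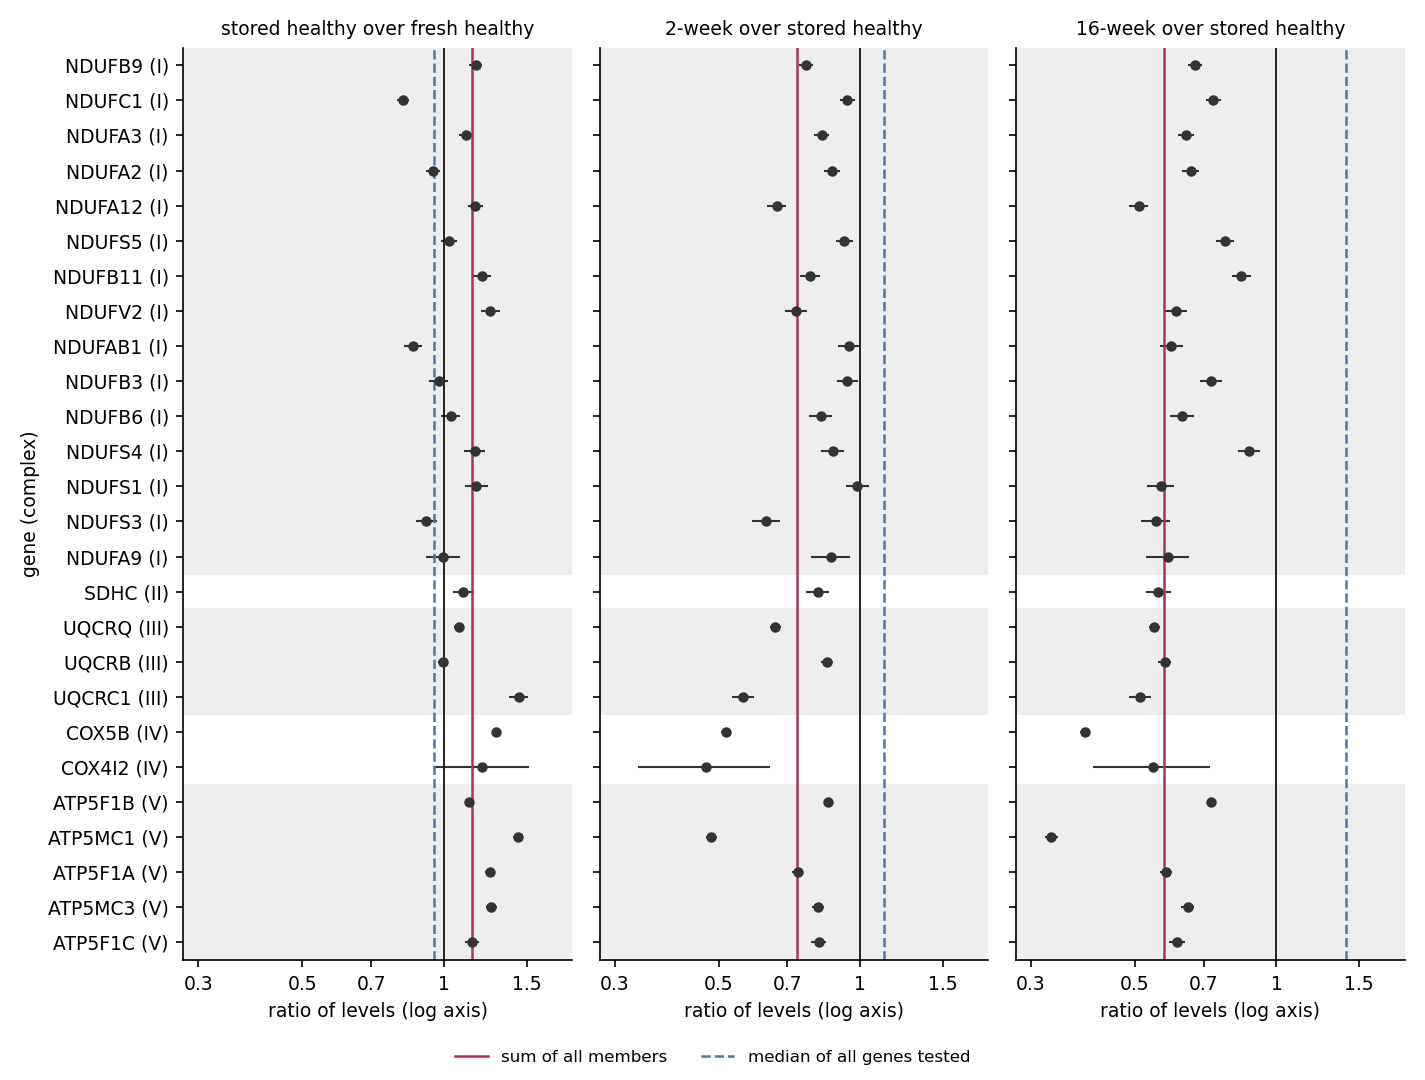
Ratio of levels (log axis) of 26 of the 27 subunits in the 3 section comparisons, with exact 95% intervals for counting error. The solid line marks the ratio of the summed members (1.15, 0.732 and 0.576 from left to right) and the dashed line the median of all genes tested (0.954, 1.12 and 1.40), so that the members lie left of the median gene in both tenotomy comparisons.

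The makeup of the members' UMIs shifted between complexes, which does not depend on the denominator. Complex I held 38.0% of the members' UMIs in fresh healthy muscle, 34.9% in stored healthy muscle, 39.3% at 2 weeks and 39.95% at 16 weeks. Complex IV, which is COX5B but for a trace, held 11.4%, 12.8%, 9.08% and 8.74%. Its share was thus lower in both tenotomy than in both healthy sections. Complex V held 32.0%, 34.7%, 34.3% and 34.4%, and differed little between the 3 stored sections.

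The 2 genes of subunit c that had a feature were closer in level in the tenotomy sections than in the healthy ones. Relative to stored healthy muscle, ATP5MC1 was lower by more than ATP5MC3. ATP5MC2 had none, so the shares below are of this pair and not of all subunit c transcripts. ATP5MC1 made up 61.5% (60.8 to 62.2) of the UMIs of the pair in fresh healthy muscle and 64.5% (64.0 to 64.9) in stored healthy muscle. It made up 51.8% (50.9 to 52.7) at 2 weeks and 48.2% (47.2 to 49.2) at 16 weeks. The tenotomy sections lay below both healthy sections by more than counting error, and at 16 weeks ATP5MC3 was the more counted gene of the pair. In fast spots the share was 66.3% in stored healthy muscle, 52.0% at 2 weeks and 55.4% (51.1 to 59.6) at 16 weeks. In mixed spots it was 66.3% in stored healthy muscle and 47.3% (45.7 to 48.8) at 16 weeks, and in slow spots 60.6% and 49.3% (47.9 to 50.7). The lower share at 16 weeks was therefore present within each fiber class. In spots with fewer than 10 myosin UMIs at 16 weeks the share was 33.7% (29.0 to 38.6), the lowest of any group of spots with 100 or more UMIs of the pair.

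**Figure D3:**
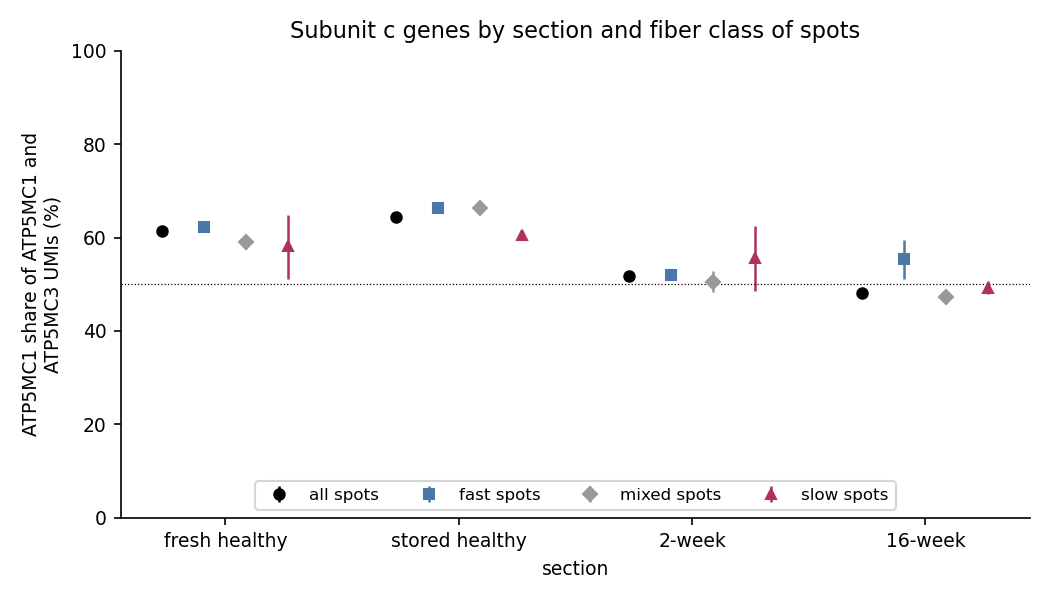
Share of ATP5MC1 in the UMIs of ATP5MC1 and ATP5MC3 (%), the 2 subunit c genes that had a feature. Shares are by section and by fiber class of the spots, with exact 95% binomial intervals. Over all spots the share is 61.5% and 64.5% in the healthy sections and 51.8% and 48.2% at 2 and 16 weeks.

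The transcripts of the mitochondrial genome encode the other part of complexes I, III, IV and V, and their UMIs were set against those of the nuclear members of the same complexes. Mitochondrial over nuclear UMIs stood at 19.5 in fresh healthy muscle, 16.7 in stored healthy muscle, 11.2 at 2 weeks and 14.8 at 16 weeks. Both tenotomy sections were below both healthy sections, since the mitochondrial transcripts were lower by more than the nuclear ones. For complex I the quotient was 10.7, 9.36, 6.72 and 6.62, and for complex III it was 7.21, 7.36, 3.44 and 6.42. For complex IV it was 94.6, 73.3, 68.1 and 99.5, so that in complex IV the 16-week section was the highest and its nuclear member COX5B was lower by more than the mitochondrial COX genes. These quotients rest on the nuclear members that had a feature and are not the stoichiometry of a complex.

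Spots were then sorted by fiber type. Spots with 10 or more UMIs of MYH1, MYH4 and MYH7 were called fast where MYH7 made up at most 25% of them, slow where it made up at least 75%, and mixed between. MYH2, the type IIa myosin, carried no named feature, so type IIa fibers could not be told from the others. The fresh healthy section held 1429 fast, 350 mixed and 14 slow spots, stored healthy muscle 590, 1061 and 701, the 2-week section 707, 123 and 12, and the 16-week section 79, 714 and 633. Within 5 percentage points of the lower limit lay 65 to 324 spots a section, and of the upper limit 15 to 279, so the classes are ranges and not cell types. The 7 slow muscle markers other than MYH7, which were not used to sort the spots, summed to 407 per 10000 in fast and 1221 in slow spots of stored healthy muscle. Their sum was higher in slow than in fast spots of each section. Not every marker was: in each section 1 of the 8 with MYH7 included was lower in slow spots. Which gene it was is not given here, and it need not be the same in each section. The slow over fast ratio of that marker was 0.776 in fresh healthy muscle, 0.521 in stored healthy muscle, 0.720 at 2 weeks and 0.741 at 16 weeks.

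Slow and fast spots differed in the summed level by less than 1.5-fold in each section, and the sections differed in which was higher. The slow over fast ratio ran from 0.931 at 16 weeks to 1.16 in fresh healthy muscle. In the stored healthy section the summed level was 487 per 10000 in fast, 531 in mixed and 453 in slow spots. In the 16-week section it was 317, 283 and 296. In the fresh healthy section it was 419 in fast, 467 in mixed and 488 in slow spots, and at 2 weeks it was 351, 413 and 398, with 14 and 12 slow spots respectively. The stored healthy section was thus highest in mixed spots, and the 16-week section in its 79 fast spots.

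The slow over fast ratio of the sum was 0.932 (0.923 to 0.941) in stored healthy muscle and 0.931 (0.905 to 0.958) in the 16-week section. It was 1.16 (1.11 to 1.22) in fresh healthy muscle and 1.14 (1.08 to 1.197) at 2 weeks, each of which rests on few slow spots. In the stored healthy section the ratio passed to 1.01 among spots at or below the median connective tissue marker share, to 1.02 with limits of 10% and 90% MYH7, and to 1.001 with all UMIs as the denominator. In that section connective tissue markers stood at 134 per 10000 in slow and 59.9 in fast spots, and their part in the ratio was not tested. In the 16-week section sorting by other slow and fast fiber genes gave 1.05.

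Of single members in stored healthy muscle, 0 of 27 were lower in slow spots by 1.5-fold and 1 was higher, against 7.27% of 2063 genes lower and 20.7% higher. The 1 member was COX4I2, at 0.501 per 10000 in slow and 0.321 in fast spots, a ratio of 1.56 (1.10 to 2.24) on 112 and 47 UMIs. After it came NDUFS5 at 1.07, ATP5MC3 at 1.07, UQCRC1 at 1.04 and NDUFS1 at 1.03. Among the lowest were NDUFS3 at 0.739 (0.677 to 0.806), SDHC at 0.779 (0.720 to 0.842), ATP5MC1 at 0.837 (0.811 to 0.865) and UQCRB at 0.844. The members' median was 0.913 and that of all genes tested 1.14.

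In the 16-week section 0 of 26 members with enough UMIs were lower in slow spots by 1.5-fold and 0 were higher, against 5.94% of 1481 genes lower and 17.7% higher. The lowest ratios were those of NDUFS3 at 0.692 (0.546 to 0.887), SDHC at 0.723, NDUFA9 at 0.769 and NDUFC1 at 0.772. The highest were those of ATP5MC3 at 1.16 (1.02 to 1.33), NDUFS4 at 1.13, NDUFS5 at 1.06, NDUFAB1 at 1.06 and NDUFB11 at 1.05. For 20 of the 26 the interval held 1, so for most members a difference between slow and fast spots was not detectable with 79 fast spots. NDUFS3 and SDHC were among the 5 lowest in both sections. The members' median was 0.920 and that of all genes tested 1.11.

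**Figure D4:**
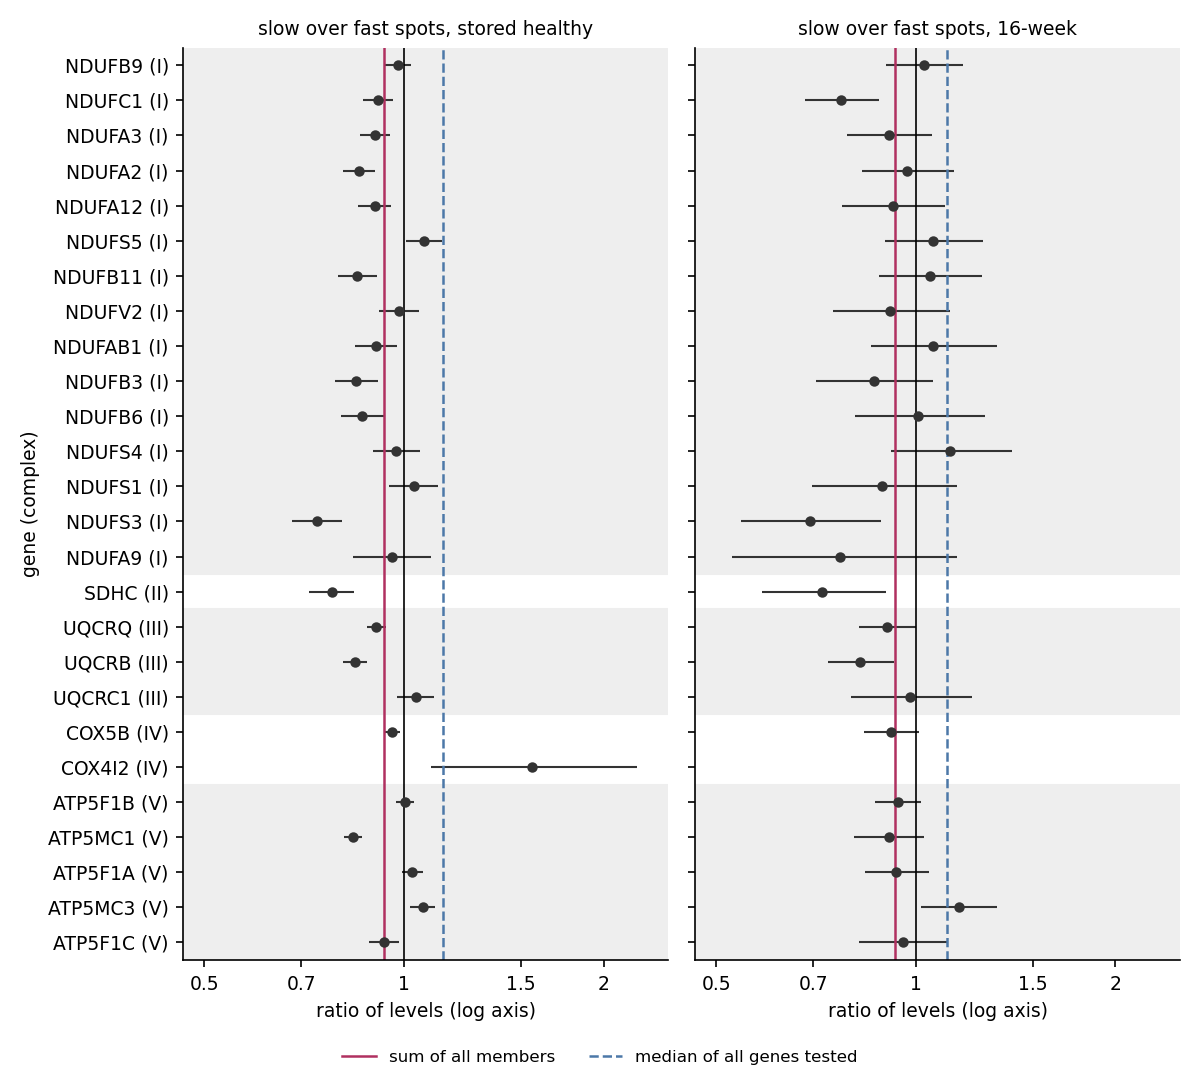
Ratio of the level in slow spots to that in fast spots (log axis) of single subunits in the stored healthy (26 drawn) and the 16-week section (25 drawn), with exact 95% intervals for counting error. The solid line marks the summed members (0.932 and 0.931) and the dashed line the median of all genes tested (1.14 and 1.11).

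Across 5 ranges of the MYH7 share, each 20 percentage points wide, the summed level in fresh healthy muscle was 417, 452, 474, 504 and 478 per 10000 from the least to the most MYH7. The last range held 10 spots, and up to the fourth range the level was higher with more MYH7. Complex V went from 131 in the first to 177 in the fourth range of that section, and complex I from 162 to 172. In the stored healthy section the levels were 475, 523, 532, 533 and 449, so that the spots with the highest MYH7 share were the lowest. The connective tissue markers in the last range stood at 138 per 10000, against 53.7 to 62.2 in the other ranges. At 2 weeks the levels were 348, 396, 420.4, 412 and 418, with 22 spots in the fourth range and 6 in the last (388 to 450). At 16 weeks they were 317, 309, 279, 281 and 298, with 51 spots in the first range. The 16-week section was below each other section in every range.

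**Figure D5:**
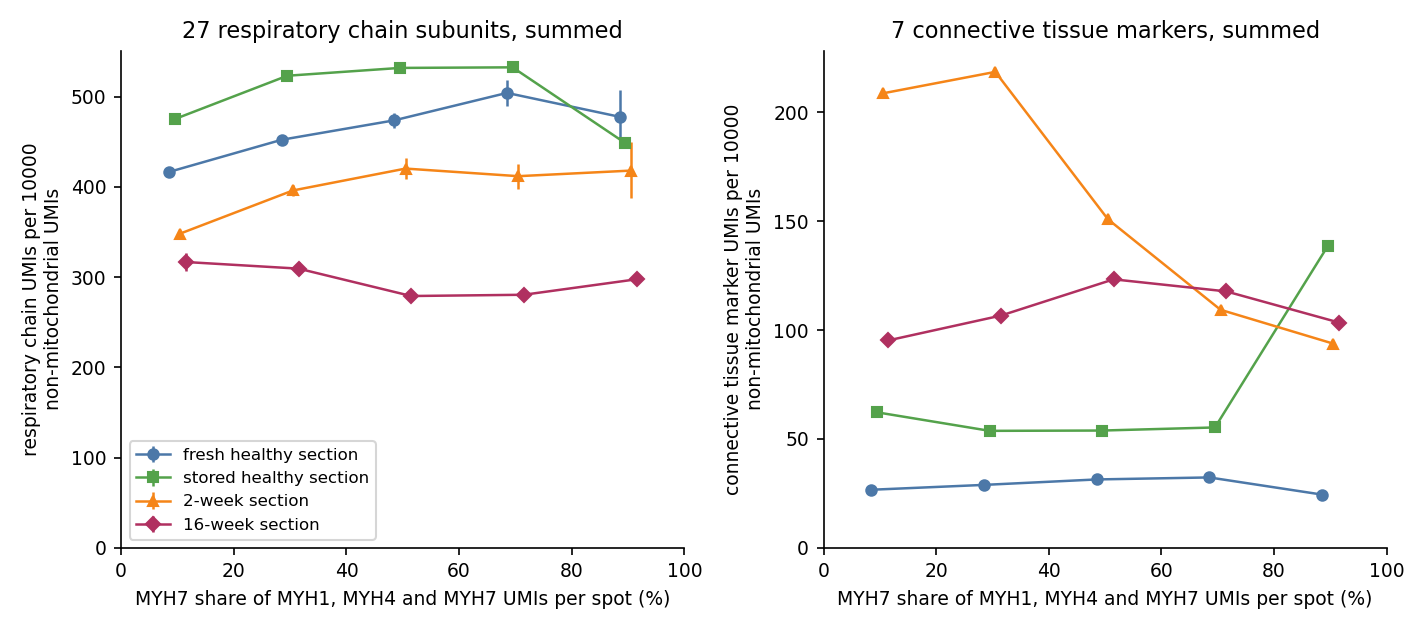
Left, summed level of the 27 subunits (UMIs per 10000 non-mitochondrial UMIs) in spots grouped by the share of MYH7 among MYH1, MYH4 and MYH7 UMIs (%, 5 ranges), with exact 95% Poisson intervals, 1 line per section. Right, the summed level of the 7 connective tissue markers in the same spots, which in stored healthy muscle is 138 in the last range and 53.7 to 62.2 in the others.

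Per non-mitochondrial UMI, the lower summed level after tenotomy was present within each fiber class. The classes were set by MYH7 share and not matched otherwise. Connective tissue markers stood at 59.9, 53.4 and 134 per 10000 in fast, mixed and slow spots of stored healthy muscle. They stood at 209, 186 and 85.2 at 2 weeks and at 96.6, 118 and 107 at 16 weeks. Over all spots MYH4 stood at 60.2 at 2 weeks and 0.459 in stored healthy muscle. The part of these differences was not tested. The 16-week over stored healthy ratio of the sum was 0.652 (0.634 to 0.671) in fast, 0.533 (0.526 to 0.539) in mixed and 0.652 (0.644 to 0.659) in slow spots. Of 26 members with 100 or more UMIs in each class, 25 lay below 1 in all 3 classes, against 26.8% of 1191 genes, and 6 were lower by 1.5-fold in all 3, against 6.13%. Complex IV had the lowest ratio of the 5 complexes in each class, at 0.471, 0.350 and 0.450, and complex I stood at 0.729, 0.616 and 0.748. At 2 weeks the ratio was 0.720 (0.713 to 0.728) in fast, 0.778 (0.766 to 0.791) in mixed and 0.879 (0.834 to 0.925) in the 12 slow spots. Of the members, 17 of 26 lay below 1 in all 3 classes, against 21.2% of 1517 genes, and 2 were lower by 1.5-fold in all 3, against 2.9%. The exception at 16 weeks was NDUFS4 in slow spots.

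COX5B showed this class by class. In fast spots it stood at 47.3 per 10000 in fresh healthy muscle, 60.4 in stored healthy muscle, 31.6 at 2 weeks and 28.5 at 16 weeks. In mixed spots it stood at 53.7, 68.9, 37.6 and 24.01, and in slow spots at 54.3, 57.9, 36.3 and 26.1. In each class both tenotomy values were below both healthy values. ATP5MC1 stood at 30.8, 45.6, 21.1 and 18.1 in fast spots and at 39.5, 38.2, 30.9 and 16.4 in slow spots, with the same order of healthy above tenotomy. In slow spots its intervals overlapped between fresh healthy muscle (32.9 to 47.0, 14 spots) and 2 weeks (25.5 to 37.1, 12 spots).

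Other mitochondrial genes were set beside the subunits from lists of names. CKMT2, the sarcomeric mitochondrial creatine kinase that passes the energy of ATP to creatine, stood at 39.7, 59.9, 24.6 and 15.9 per 10000, and was lower than in stored healthy muscle by a ratio of 0.411 at 2 weeks and 0.266 at 16 weeks. Of 6 citrate cycle genes, 2 were lower by 1.5-fold and 1 higher at 2 weeks (median 0.881), and 1 was lower and 0 higher at 16 weeks (median 0.692). Of 12 assembly factors with enough UMIs, 12 lay below 1 at 16 weeks, with a median of 0.864, where 25.3% of all genes tested did, and 2 were lower by 1.5-fold. Of 33 mitochondrial ribosomal proteins, 1 was lower and 2 were higher by 1.5-fold at 16 weeks, with a median of 0.905, and at 2 weeks 3 were lower and 0 higher, with a median of 0.868. Those shares of lower ribosomal proteins were near or under the 7.45% at 16 weeks and 8.21% at 2 weeks of all genes. Below 1, however, lay 27 of 33 at 16 weeks, against 25.3% of all genes tested, and 24 of 33 at 2 weeks, against 37%. The median of all genes tested was 1.40 at 16 weeks and 1.12 at 2 weeks. At 16 weeks the 20 of 27 subunits that passed 1.5-fold thus stood beside 1 of 33 ribosomal proteins, and the medians were 0.597 and 0.905. Of 11 carriers and import proteins, 3 were lower and 0 higher at 16 weeks (median 0.942). Of 4 genes with enough UMIs among CYC1, CYCS and names starting COQ, 1 was lower and 1 higher at 16 weeks (median 0.949). The regulators of mitochondrial genes were too rare to compare, with 2 of 8 reaching 100 UMIs in either tenotomy comparison.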

How the data were processed

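The authors processed the reads of 4 Visium capture areas with Space Ranger 1.2.0 against the rabbit genome OryCun2.0 and aligned spots to tissue images by hand. The deposited files hold raw UMI counts per gene and spot under tissue, which were used as deposited, with features and barcodes matched by order. Tissue positions carried no barcodes and were not used, so all results are by spot and not by place.

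UMIs were summed per section or spot group and divided by the UMIs of all genes but the 37 mitochondrial ones. With 1 section a condition no test was made. Ratios of 1.5-fold or more were counted among genes with 100 or more UMIs in both groups together. Intervals were exact at 95% (Python 3.11.15, scipy 1.17.1), and their calculation was checked on simulated counts. Those counts held counting error only, so the check does not cover differences between spots, sections or animals. The members, the gene lists and the alternatives were chosen with earlier results of these data known. In each comparison the 5 members with the highest and the 5 with the lowest ratio, the most counted member of each complex and the isoform pairs were named, and further members were named to cover each role after their values were seen. Results of 1 member are not reported here, although it is part of the sums, counts and medians. Comparisons of slow with fast spots in the fresh and 2-week sections have 14 and 12 slow spots and are given as sums. Single genes there are only SDHC, the whole of complex II here, and NDUFA9, whose direction in the fresh section changed with the limits. Levels of COX5B and ATP5MC1 in these spots are given only to compare sections within a class. Spots were not tested for mixtures, since each covers several cells. Alternatives were other denominators, other spot filters, thinning each spot to 500 UMIs, leaving out the 5 most abundant members and other fiber limits.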

Additional observations from a re-analysis of the deposited data

Results flagged for a closer look

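The slow over fast ratio of the summed subunits lay on opposite sides of 1 in different sections. Fresh healthy muscle (1.16) and the 2-week section (1.14) lay above 1, and stored healthy muscle (0.932) and the 16-week section (0.931) below it. The difference between sections was not tested, since each is 1 section, and the first 2 values rest on 14 and 12 slow spots. Complex V had the highest slow over fast ratio of the 5 complexes in each of the 4 sections, at 1.32, 1.22, 0.965 and 0.966 in the order just given, and SDHC the lowest, at 0.757, 0.815, 0.779 and 0.723. The interval of complex V overlapped that of complex IV in each of these sections, with complex IV at 0.962 in stored healthy muscle. At 2 weeks the interval of complex V overlapped those of all other complexes. The interval of SDHC lay below all others only in stored healthy muscle. In slow spots SDHC had only 16 UMIs in fresh healthy muscle and 18 at 2 weeks.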

How the results depend on the processing

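No paired analysis was possible because each condition is 1 section. Moving NDUFA4 between complexes was not run, since it has no named feature. The 16-week over stored healthy ratio of the sum (0.576) stayed below 1 in every alternative, at 0.742 with all UMIs as denominator, 0.544 without sarcomere genes in it, 0.411 scaled by the median gene, 0.542 with thinned spots, 0.638 without the 5 most abundant members, 0.597 as the members' median, 0.590 in muscle spots, and 0.652, 0.533 and 0.652 in fast, mixed and slow spots. In the same order, without muscle spots, the 2-week ratio (0.732) was 0.954, 0.760, 0.651, 0.725, 0.815, 0.814, 0.720, 0.778 and 0.879. Stored over fresh (1.15) was 1.16 without sarcomere genes, 1.203 scaled, 1.18 thinned, 1.08 without the 5 members, and 1.16, 1.14 and 0.929 in fast, mixed and slow spots, the last on the other side of 1.

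Slow over fast in the stored healthy section (0.932) was 1.001 with all UMIs, 0.956 without sarcomere genes, 0.814 scaled, 0.953 thinned, 0.920 without the 5 members, 0.913 as the median, 1.02 with limits of 10% and 90%, 0.945 with a single limit of 50%, 0.888 by other fiber genes and 1.01 in spots low in connective tissue. At 16 weeks (0.931) it was 0.976 with all UMIs, 0.836 scaled, 0.962 thinned, 0.992 with limits of 10% and 90%, 0.976 with 50% and 1.05 by other fiber genes. In the fresh section (1.16) it was 1.09 without the 5 members and 1.28 in spots low in connective tissue. At 2 weeks (1.14) it was 0.979, 1.04 and 1.248 with all UMIs, scaled and thinned, 1.06 without the 5 members, 1.1997 by other fiber genes and 1.03 in spots low in connective tissue. Over all alternatives, single-member slow over fast values lay on the other side of 1 in 49 of 263 cases in the fresh, 35 of 270 in the stored healthy, 38 of 260 in the 2-week and 40 of 269 in the 16-week section. Of these, a value past 1.5-fold crossed for NDUFA9 in the fresh section (0.945 with a limit of 50%, 0.888 by other fiber genes) and for COX4I2 at 16 weeks (0.892 thinned). Both main values rest on few UMIs and their intervals held 1. NDUFA9 stood at 1.66 (0.882 to 2.87) on 13 UMIs in slow spots of the fresh section. In the other sections NDUFA9 stood at 2.09 (1.19 to 3.44) at 2 weeks, on 16 UMIs in slow spots, at 0.959 in stored healthy muscle and at 0.769 at 16 weeks. COX4I2 stood at 1.53 (0.383 to 13.3) on 26 UMIs in slow and 2 in fast spots. Per all UMIs 11 of 27 members at 2 weeks and 24 of 27 at 16 weeks lay below 1. The cause was not tested. The alternatives within fiber classes and in spots low in connective tissue were chosen after seeing the data.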
